A study of Homo sapiens with 3 samples.

Results

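The inhibitors of cyclin-dependent kinases (CDKs), the retinoblastoma gene RB1 and MDM2, a ubiquitin ligase, were described on 3 expression arrays. The members were chosen by gene symbol from a list of 9 genes, through the platform annotation, and 8 of these genes had a probe set, out of 19775 genes in all. They were read by 26 of 54675 probe sets, and CDKN2C was not analysed here. HepG2, a line from a human liver tumour, was the label of all 3 cultures, which grew in DMEM with fetal bovine serum. A single array each came from cells stably carrying an Hsp27 ORF vector (called ORF), an shRNA vector against Hsp27 (shRNA), and a control vector (control). Whether each culture was a single clone or a pool was not given in the sources used here.

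The CDK inhibitors hold the cell cycle before S phase. The INK4 family (CDKN2A, CDKN2B, CDKN2C and CDKN2D) binds CDK4 and CDK6 and keeps them from cyclin D, while the CIP/KIP family (CDKN1A or p21, CDKN1B or p27, CDKN1C or p57) acts mainly on cyclin and CDK2 complexes. Both keep the RB1 protein unphosphorylated, in which state it holds back the E2F factors. CDKN2A also encodes ARF, which binds and blocks MDM2, so that the same gene acts on RB1 and on MDM2. CDKN1C is an imprinted gene, known for growth control before birth.

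Promoter sequences of GRCh38.p14 from RefSeq show the layout of the INK4 genes on 9p. Each line gives the 250 bases before a transcription start, 5′ to 3′ on the gene's strand. CDKN2A has 2 separate starts for its products, shown because its bright probe sets stand for the gene as a whole. The start of p16 lay 20467 bases downstream of the start of ARF, inside the gene. The CDKN2B start lay 13981 bases upstream of the ARF start, on the same strand. Capitals mark GGGCGG or its complement CCGCCC, the core bound by SP1-type factors, searched on both strands.
CDKN2A-ARF (chr9:21995325-21995574, minus strand): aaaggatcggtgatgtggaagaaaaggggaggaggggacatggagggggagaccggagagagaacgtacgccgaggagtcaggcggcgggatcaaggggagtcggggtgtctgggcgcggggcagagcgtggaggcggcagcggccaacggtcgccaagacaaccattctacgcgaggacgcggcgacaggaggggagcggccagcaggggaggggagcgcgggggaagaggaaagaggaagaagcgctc
CDKN2A-p16 (chr9:21974858-21975107, minus strand): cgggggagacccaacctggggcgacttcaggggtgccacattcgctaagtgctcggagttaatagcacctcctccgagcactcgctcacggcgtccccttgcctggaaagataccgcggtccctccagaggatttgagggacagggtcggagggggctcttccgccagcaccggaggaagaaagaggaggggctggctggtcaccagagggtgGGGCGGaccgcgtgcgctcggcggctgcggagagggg
CDKN2B (chr9:22009306-22009555, minus strand): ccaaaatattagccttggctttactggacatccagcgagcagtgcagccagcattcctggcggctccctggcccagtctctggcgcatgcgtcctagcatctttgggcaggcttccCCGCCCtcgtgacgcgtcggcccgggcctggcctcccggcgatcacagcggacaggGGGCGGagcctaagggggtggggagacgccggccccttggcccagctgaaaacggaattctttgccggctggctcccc
The core occurred 0 times before ARF, 1 time before p16 and 2 times before CDKN2B, and 42.6% of 35116 promoter windows of this length held it. CpG dinucleotides numbered 24, 20 and 18 in the same order, against a median of 11 over all windows. None of the 3 windows held TATAAA, which 10.7% of windows held, or a match to the E2F words TTTCCCGC, TTTCGCGC, TTTGCCGC and TTTGGCGC on either strand, which 2.79% held. These matches describe letters in a window of this length and are not shown to be bound in these cells.

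Values below are deposited log2 signals, and a probe set's percentile is its rank among the 54675 probe sets of the same array. Probes bind with unequal strength, so percentiles do not order the genes by their amounts of RNA. A log2 signal of 5.93, the median over the 3 arrays pooled, served as a floor for ratios, and 8.63 was the pooled 75th percentile. Of the 26 member probe sets, 15 were above the floor on all 3 arrays, 3 on 1 or 2 arrays and 8 on none. Above the 75th percentile on all 3 arrays were 10 probe sets, of CDKN1B, CDKN1C, CDKN2A, MDM2 and RB1.

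**Figure D1:**
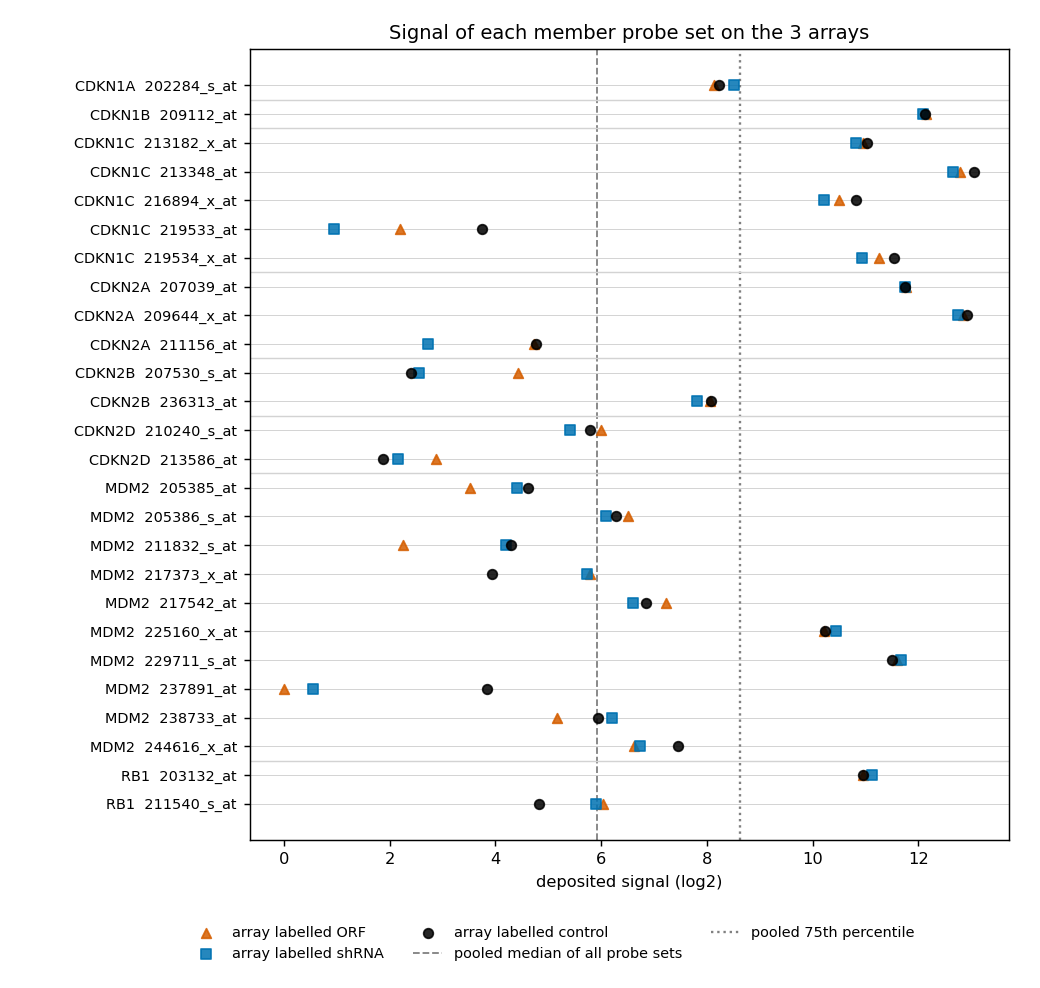
Deposited log2 signal (horizontal axis) of the 26 member probe sets (rows) on the arrays labelled ORF (triangles), shRNA (squares) and control (circles). The dashed line is the pooled median, 5.93, and the dotted line the pooled 75th percentile, 8.63, and the widest gaps between arrays lie among the probe sets left of the dashed line.

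The arrays did not show the liver identity of their label, which bears on reading every level here. Of 17 hepatocyte markers with a named probe set, 2 were above the floor on average (RBP4 and TF), and ALB (albumin) read 4.68, 4.88 and 4.27 on the arrays labelled ORF, shRNA and control. Markers of other cell types gave a mixed picture. Above the 75th percentile on average were 4 of 8 epithelial markers, 6 of 8 mesenchymal, 3 of 11 fibroblast and stellate cell (LUM, COL1A1 and DCN), 0 of 8 leukocyte and 0 of 5 endothelial markers. The epithelial keratin KRT18 read at least 13.41 and the mesenchymal filament VIM at least 13.78, while the keratins KRT19, KRT5 and KRT14 were below the floor on every array. HSPB1, which encodes Hsp27, read 13.11, 13.03 and 13.25, highest on control and lowest on shRNA. The ORF array, below control, does not follow its label, while shRNA below control has the direction of its label. The arrays are therefore named by label, and cell line identity was not tested. With 1 array per group no difference below has a replicate check.

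Among the INK4 genes, CDKN2A was bright and nearly level across the arrays. Probe set 209644_x_at read 12.85 on the array labelled ORF, 12.75 on shRNA and 12.93 on control (linear signals of 7384, 6892 and 7811), at percentiles 97.7, 97.5 and 97.8. Probe set 207039_at read 11.77, 11.74 and 11.75, a range of 0.026 on the log2 scale and the narrowest of the 10 bright member probe sets. Both therefore stood at percentile 94.5 or above on each array, and neither spread over more than 0.18 between arrays. The third, 211156_at, read 4.72, 2.72 and 4.76, below the floor on every array. Which of the products, p16 or ARF, each probe set reads was not given in the sources used here, so the bright signal is that of the gene and not of 1 product.

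CDKN2B, the neighbour of CDKN2A that encodes p15 and is known as a target of TGF-beta signalling, was dimmer. Probe set 236313_at read 8.06, 7.82 and 8.08 on the arrays labelled ORF, shRNA and control, at percentiles from 68.2 to 70.5. Its other probe set, 207530_s_at, read 4.42, 2.55 and 2.41, below the floor throughout. CDKN2D, which encodes p19, was at background: 210240_s_at read 5.99, 5.41 and 5.78, above the floor on the ORF array alone, and 213586_at was at most 2.87. CDKN2B and CDKN2D thus had no probe set above the 75th percentile on any array.

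In the CIP/KIP family, CDKN1B and CDKN1C were bright and CDKN1A was intermediate. CDKN1B (209112_at) read 12.14, 12.08 and 12.13 on the arrays labelled ORF, shRNA and control, at percentiles from 95.7 to 95.9. CDKN1A (202284_s_at), which is known to arrest cells after DNA damage, read 8.14, 8.51 and 8.23 (linear signals of 282.3, 364.3 and 300.4), at percentiles 70.8, 74.0 and 71.7. It was highest on shRNA, and the arrays labelled ORF and control differed by less than the noise defined below.

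CDKN1C gave the brightest value of any member probe set and the clearest order of arrays. Probe set 213348_at read 12.79 on the array labelled ORF, 12.66 on shRNA and 13.06 on control (linear signals of 7082, 6473 and 8530). Probe set 219534_x_at read 11.25, 10.94 and 11.55, 216894_x_at read 10.50, 10.22 and 10.83, and 213182_x_at read 10.96, 10.83 and 11.03. All 4 were highest on control and lowest on shRNA, and so was 219533_at, which was below the floor on every array (2.19, 0.95 and 3.75). Probe sets ending in _x_at can share probes or match other transcripts, so the 4 are not independent readings. Over all genes, 1000 had at least 4 probe sets above the floor on all arrays. In 23 of these (2.3%) every such probe set gave the same order of arrays, and in 9 that order was control, ORF, shRNA. This is a description, chosen after the values of CDKN1C were seen. The 3′ to 5′ signal ratio of ACTB, a sign of RNA integrity, had the same order of arrays, at 2.70 on control, 2.40 on ORF and 2.23 on shRNA, while that of GAPDH was 0.930, 0.939 and 0.900. Some cell type markers were also highest on control. The summed linear signal of the 8 epithelial markers was 14.83, 14.89 and 15.15 in log2 on the arrays labelled ORF, shRNA and control. That of the 17 hepatocyte markers was 10.49, 10.52 and 11.03, most of it from RBP4 alone (9.97, 9.99 and 10.62). Only 3 of these 17 were above the floor on any array. KRT8, an epithelial keratin, stood at -0.83 for ORF and -0.58 for shRNA against control. RBP4, already in the hepatocyte sum, stood at -0.65 and -0.63, and DCN (decorin, of the fibroblast list) at -0.47 and -0.90. Other markers of the same lists were not highest on control: COL1A1 stood at 0.15 and 0.80, KRT7 at -0.02 and 0.08, and EPCAM at 0.09 and 0.06. The sum of the 11 fibroblast and stellate cell markers was highest on shRNA (13.38, 13.69 and 13.64), and that of the 8 mesenchymal markers on control (15.51, 15.57 and 15.61). S100A4 was the largest part of the mesenchymal sum (14.55, 14.58 and 14.77), and most of that list did not share its order. The median ratio of the 8 was -0.07 for ORF and 0.12 for shRNA against control. In the latter, 2 were past 1.5-fold higher (FN1 and ZEB2) and 0 lower, beside 6.89% of all genes in either direction. No marker of these lists was listed at 0 on any array. The part of RNA integrity or of these cell types in the CDKN1C order was not tested.

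RB1 was well above background on 1 of its 2 probe sets. Probe set 203132_at read 10.96, 11.13 and 10.95 on the arrays labelled ORF, shRNA and control, at percentiles from 90.8 to 91.8. Probe set 211540_s_at read 6.04, 5.90 and 4.82, above the floor on the ORF array only.

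The 10 probe sets of MDM2 disagreed widely in level. Probe set 229711_s_at read 11.60, 11.67 and 11.51 on the arrays labelled ORF, shRNA and control, at percentiles from 93.6 to 94.2, and 225160_x_at read 10.21, 10.44 and 10.23. The next 3, 205386_s_at, 217542_at and 244616_x_at, lay between 6.10 and 7.45, above the floor and below the 75th percentile. Probe set 238733_at straddled the floor (5.17, 6.21 and 5.94). The remaining 4 were below it on every array, and 237891_at was listed at 0 on the array labelled ORF. The 5 probe sets above the floor on all arrays came in 4 different orders of arrays, so MDM2 showed no shared order of the kind seen for CDKN1C. MDM4, the partner protein of MDM2, read 11.78, 11.76 and 11.84 by its brightest probe set on the arrays labelled ORF, shRNA and control.

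For ratios, signals were scaled to equal trimmed means and raised to the floor. Noise SD means the spread between log2 ratios of different probe sets of the same gene, at the same brightness. In ORF against control it was 0.407 for the dimmest probe sets, around a signal of 6.32, and 0.0800 for the brightest. It did not fall at every step between these. It was taken after signals were raised to the floor and leaves out all variation between cultures. A gene was counted as different at 1.5-fold (0.585 on the log2 scale), which is a rule of size and not a test. Each gene was represented by its probe set of highest mean signal.

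No member gene reached 1.5-fold in any comparison. The count was 0 of 8 for ORF against control, where 5.86% of 12664 genes above the floor did. It was 0 of 8 for shRNA against control, where 6.89% did, and 0 of 8 for ORF against shRNA, where 5.32% did. A count of 0 among 8 genes is near these backgrounds and is no result about these members. Both comparisons with control use the same control array, as the values set side by side below do.

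In both comparisons with control, CDKN1C had the largest ratio of the represented genes, and between ORF and shRNA CDKN1A did. By 213348_at it was 1.20-fold lower on the array labelled ORF than on control (log2 ratio -0.27, noise SD 0.091) and 1.32-fold lower on shRNA than on control (-0.40, noise SD 0.13). By 216894_x_at and 219534_x_at the shRNA ratios were -0.61 each (noise SD 0.18 and 0.17), just past 1.5-fold, and the ORF ratios were -0.33 and -0.30 (noise SD 0.12 each). By 213182_x_at the values were -0.07 for ORF (noise SD 0.13) and -0.20 for shRNA against control (noise SD 0.17). ORF exceeded shRNA by 0.12 to 0.31 over the 4 probe sets, beyond 2 noise SD in 219534_x_at alone.

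CDKN1A and RB1 leaned to the array labelled shRNA, within noise or little above it. CDKN1A was 1.21-fold higher on shRNA than on control (0.28, noise SD 0.28) and 1.29-fold lower on ORF than on shRNA (-0.37, noise SD 0.25), while ORF against control was -0.09. RB1 by 203132_at was 0.18 higher on shRNA than on control (noise SD 0.17) and 0.01 higher on ORF than on control. CDKN1B differed by at most 0.06 in any comparison, below its noise SD. CDKN2A by 209644_x_at was at -0.08 for ORF and -0.18 for shRNA against control (noise SD 0.091 and 0.13), but 207039_at gave 0.02 and -0.01. CDKN2B by 236313_at was at -0.02 and -0.26 (noise SD 0.27 and 0.31).

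MDM2 depended on the probe set. By the brightest, 229711_s_at, it was 0.10 higher on ORF and 0.16 higher on shRNA than on control (noise SD 0.11 and 0.16). Dim 244616_x_at was 1.76-fold lower on ORF and 1.64-fold lower on shRNA than on control (-0.82 and -0.71, noise SD 0.41 each), and dim 217542_at was 1.53-fold higher on ORF than on shRNA (0.61, noise SD 0.41). No other MDM2 probe set passed 1.5-fold in those comparisons.

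Counted by probe set, 18 of the 26 passed the floor, on 1 array or more. For ORF against control 0 were higher and 1 lower past 1.5-fold, beside 3.63% and 3.05% of 24382 probe sets. For shRNA against control 0 were higher and 3 lower, beside 4.41% and 3.56%. For ORF against shRNA 1 was higher and 0 lower, beside 3.12% and 3.15%. The 3 lower on shRNA were the CDKN1C pair and 244616_x_at of MDM2. Ratios beyond 2 noise SD numbered 4 of 18 for ORF against control (background 9.74%), 3 for shRNA against control (8%) and 1 for ORF against shRNA (7.8%). CDKN1C supplied 3, 3 and 1 of them. Since its probe sets read 1 gene, these counts rest mainly on that gene. The median over the 18 was -0.01, -0.11 and 0.08 in the 3 comparisons, against 0, 0 and 0.001 over all probe sets above the floor, to within 0.01.

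**Figure D2:**
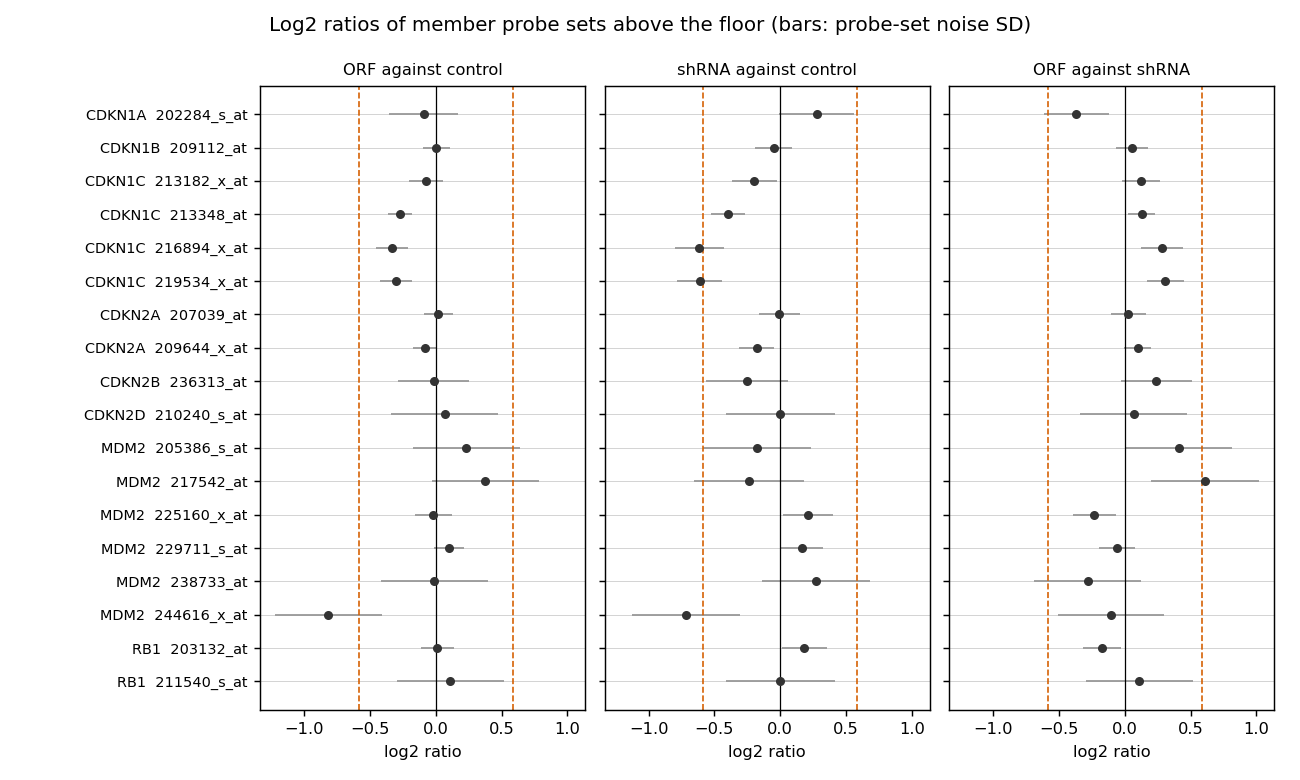
Log2 ratio (horizontal axes) of the 18 member probe sets above the floor on at least 1 array, for the 3 pairs of arrays, with bars of 1 probe-set noise SD and dashed lines at 1.5-fold. The 4 CDKN1C points lie left of 0 against control in both comparisons, and 244616_x_at of MDM2 lies farthest left.

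The partners of the inhibitors were bright. Of 15 cyclins, CDKs and activators of the G1/S step, 14 were above the floor. Past 1.5-fold was 1 for ORF against control (background 5.86%), 0 for shRNA against control (6.89%) and 0 for ORF against shRNA (5.32%), counts near the shares over all genes. The same shares are the background of the lists that follow. CDK4 read 13.18, 13.16 and 13.24 and CDK6, the other INK4 target, 13.42, 13.53 and 13.53 on the arrays labelled ORF, shRNA and control. CDK2 read 11.98, 11.90 and 11.95 and its partner CCNE1 10.25, 10.28 and 10.05. CCND1, the cyclin D gene induced by growth factors, read 10.18, 9.60 and 9.78, a ratio of 0.57 for ORF against shRNA (noise SD 0.18). The 1 gene past the threshold was CDC37, which helps the chaperone HSP90 fold kinases such as CDK4, at 0.64 for ORF against control (noise SD 0.12).

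Of the 12 pocket proteins and E2F factors, all were above the floor, and 1, E2F1, passed 1.5-fold, for shRNA against control (background 6.89%) and for ORF against shRNA (5.32%). E2F1, the activator that RB1 restrains, read 8.25, 8.95 and 7.97 on the arrays labelled ORF, shRNA and control, so it was 0.98 higher on shRNA than on control (noise SD 0.27). The log2 ratio of ORF to shRNA was -0.69, with a noise SD of 0.23. Its other probe set, 2028_s_at, read 7.90, 7.89 and 8.01, with the opposite sign in each comparison. RBL1 read 8.46, 8.66 and 8.46 and RBL2 10.58, 10.25 and 10.28. Of 21 E2F target genes 0 passed 1.5-fold in any comparison (backgrounds 5.86%, 6.89% and 5.32%), which is no result about this list. They had a median of 0.00 between ORF and control, -0.08 between shRNA and control and 0.05 between ORF and shRNA. Over all genes above the floor these medians were 0, -0.006 and 0.005.

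Genes beside the members on the chromosomes were read as well, since deletions of 9p and 13q often remove neighbours together. MTAP, which lies next to CDKN2A, read 10.01, 9.80 and 9.95 on the arrays labelled ORF, shRNA and control, while CDKN2B-AS1 was at most 1.51 and DMRTA1 at most 3.85. Of 13 neighbours on 9p, 8 were above the floor. IFT74 was 0.79 higher on ORF than on control (noise SD 0.32), the 1 of 8 past 1.5-fold (background 5.86%). That probe set read 7.94, 7.48 and 7.15 on the arrays labelled ORF, shRNA and control. The other for IFT74, 61732_r_at, was below the floor and lower on ORF than on control (5.30, 5.34 and 5.55). Of 8 neighbours of RB1 on 13q, 6 were above the floor, and MED4 was the 1 past 1.5-fold, at 0.61 for shRNA against control (noise SD 0.18, background 6.89%). MED4 was also 0.50 higher on ORF than on control (noise SD 0.12).

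Factors that degrade the inhibitors or control their genes were read last. SKP2, which marks CDKN1B for degradation, read 13.50, 13.81 and 13.56 on the arrays labelled ORF, shRNA and control. The ratio was -0.32 for ORF against shRNA (noise SD 0.082), a sign shared by 1 of its 2 other probe sets above the floor. Of 11 ligase parts 0 passed 1.5-fold in any comparison, near the backgrounds of 5.86%, 6.89% and 5.32%. EZH2, a Polycomb enzyme known to silence CDKN2A, read 11.46, 11.39 and 11.54, and BMI1 was not analysed here. Of 27 transcription regulators, CBX7, another Polycomb protein, was the 1 past 1.5-fold (backgrounds 5.86% and 6.89%), at -0.73 for ORF and -0.85 for shRNA against control (noise SD 0.42 and 0.43). Its levels of 6.46, 6.33 and 7.18 were near the floor. Beside SKP2, those below 1.5-fold but beyond 3 noise SD in these lists were CUL4A, a ligase scaffold, at 0.49 for shRNA against control (noise SD 0.16), and MXI1, an antagonist of MYC, at 0.44 for ORF against control (0.12) and 0.48 for ORF against shRNA (0.14), named after their values were seen.

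**Figure D3:**
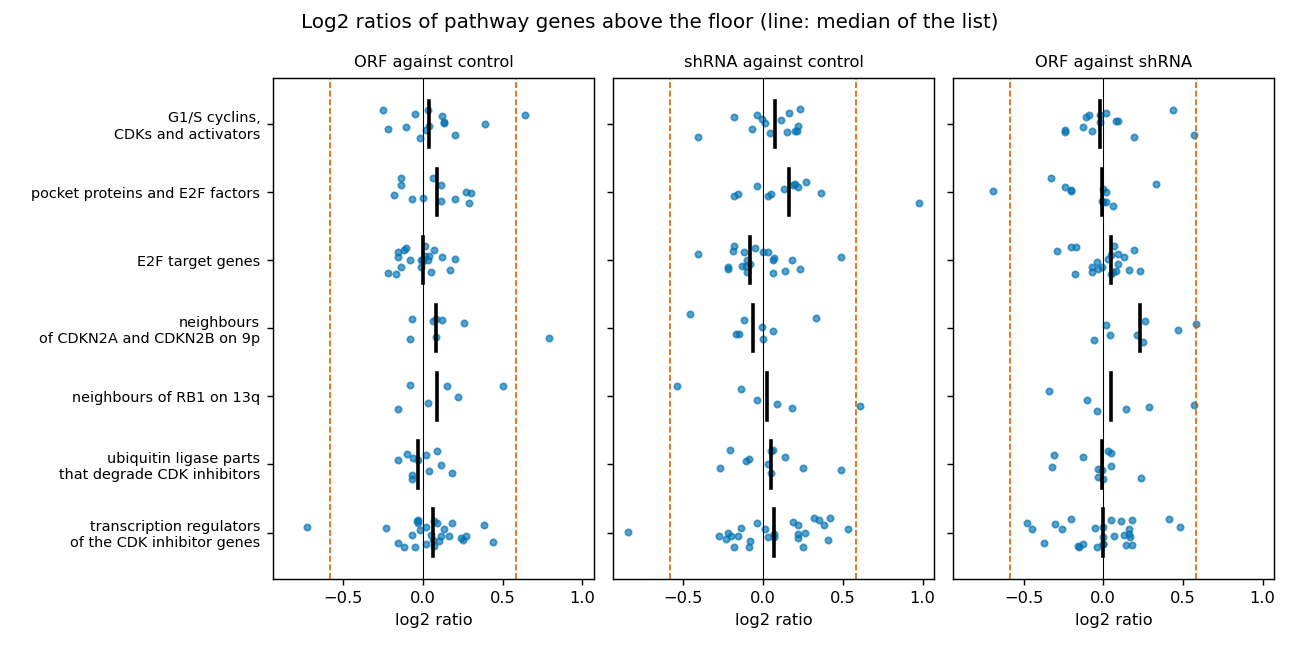
Log2 ratio (horizontal axes) of each gene above the floor in the 7 pathway lists, for the 3 pairs of arrays, with the list median as a thick line and dashed lines at 1.5-fold. Most points lie between the dashed lines, and E2F1 lies farthest right for shRNA against control.

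Counting each gene by its representing probe set, with signals raised to the floor, the member with the widest range over the arrays was CDKN1C, at 0.40 on the log2 scale. Some single probe sets of CDKN1C and MDM2 ranged more widely, as did CDKN2D before the floor was set (0.58). Before the floor, dim probe sets of RB1, CDKN2A and CDKN2B did so too (1.22, 2.04 and 2.01). By Euclidean distance over the 3 pairwise ratios, the nearest of 12663 other genes above the floor were SYT8 (a synaptotagmin), GYS1 (muscle glycogen synthase) and RAB26 (a vesicle GTPase), at distances of 0.0035, 0.0041 and 0.0061. As many as 665 genes lay within 0.2, so 3 arrays do not single out genes by likeness.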

How the data were processed

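Total RNA from 3 cultures was measured on 1 short-oligonucleotide array each, which limits the precision and allows no p-value. The authors deposited log2 signals, 1 per probe set. MAS5 is named in the submitters' processing notes. Neither its version nor its settings nor any detection calls were given in the sources used here. The log2 scale was read from the values: linear means without the highest and lowest 2% were 499.9 on each array. Samples were grouped by transfection label.

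Probe sets were named through the platform annotation: 41097 had 1 symbol, 1801 several and 11777 none, and only the first were used. The arrays were brought to 1 common trimmed mean, and signals below the pooled median were set to it before ratios were taken. The noise SD came from 6797 pairs of probe sets that share a gene and whose mean log2 signals differed by less than 1, in 20 bins of brightness. Members, lists, alternatives and the rule for named genes (all member probe sets, list genes past 1.5-fold and fixed pathway genes) were chosen with earlier results of these data known. The ratio and noise steps were tested on simulated data with the same noise at every brightness. Those checks used bright genes and left out the dimmest bins, so they do not cover signals near the floor. Some gene lists and a promoter motif of the planned analysis are not reported here. Promoters were read from RefSeq's GRCh38.p14 table, whose only RB1 window lies far inside the gene and was not used. Python 3.11.15, numpy 2.4.6, pandas 2.3.3 and statsmodels 0.14.6 (loess) were used.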

Additional observations from a re-analysis of the deposited data

How the results depend on the processing

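Alternatives for single probe sets were chosen after seeing the data. Quantile normalization, equal medians and loess centring left the counts of member genes and probe sets past 1.5-fold as reported. Without a floor the probe set counts were 10 for ORF against control, 8 for shRNA against control and 8 for ORF against shRNA, of 26, beside 32.0%, 32.5% and 30.8% of all probe sets. A floor at the 75th percentile gave 0, 2 and 0 of 10, beside 1.466%, 2.533% and 1.498% of all probe sets. The 2 were 216894_x_at and 219534_x_at of CDKN1C, which read 1 gene. A 2-fold threshold gave 0, 0 and 0 of 18, beside 1.107%, 1.218% and 0.808%. Counts of 0 are near these shares and are no result about the members. At a looser threshold, 0.32 on the log2 scale, the probe set counts were 3, 4 and 3 of 18, beside 21.5%, 25.9% and 22.3%. Member genes then numbered 0, 1 (CDKN1C) and 1 (CDKN1A) of 8, beside 18.9%, 22.8% and 19.4% of all genes, so these are no result about them. Without probe sets ending in _x_at or _s_at, the probe set counts were 0, 0 and 1 of 7, beside 7.11%, 8.43% and 6.71%. Member genes were then 0, 0 and 1 of 6 (MDM2, read by 217542_at), beside 6.37%, 7.50% and 6.01%. Leaving these out removes both CDKN1C probe sets past 1.5-fold. Taking the median signal of its 5 probe sets on each array reads CDKN1C by 213182_x_at, at -0.07 for ORF and -0.20 for shRNA against control, while its other 3 above the floor lay from -0.33 to -0.27 and from -0.61 to -0.40. Of 147 list medians under the alternatives, 146 moved by less than the noise SD of a single gene, and 12 changed sign. Percentile ranks have no loess value. The other scalings keep the order of probe sets within an array, so the ranks could not change and this is no check of them. No paired analysis was possible because each group has 1 array. Depth is limited at the dim end: below the floor, arrays differed by up to 3.84 on the log2 scale within 1 probe set (237891_at).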
